A study of Mus musculus with 20 samples.

Results

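Levels of 10 secreted signal genes, the chemokines and cytokines that skeletal cells are known to make, were examined in a cartilage-forming mouse cell line with and without the catalytic domain of Kmt2d. The members were chosen by gene symbol, with earlier results of these data known, and the rule itself used no threshold on a value. They are Ccl2, Ccl7, Cxcl1, Cxcl5, Cxcl12, Cxcl14, Csf1, Il6, Il11 and Il17b, which make 10 of the 27911 genes in the deposited table. Their values are therefore a description first, and the adjusted p-values below, all taken over every gene tested, are not independent support for the choice. Polyadenylated RNA was sequenced from clones of ATDC5, a line that forms cartilage-like cells in medium with insulin. There were 2 Kmt2d-/- clones, in which both alleles lack the catalytic SET domain, and 3 Kmt2d+/+ clones. Each clone was harvested on day 7 of culture with insulin, transferrin, selenium, ascorbic acid and beta-glycerophosphate, and on day 0, undifferentiated, before that medium was given. This gives 10 libraries in 4 groups, and every library was run on 2 flow cells whose counts were summed. The clone names are 10-7 and 96-9 for Kmt2d-/- clones 1 and 2 and 10-5, 10-7 and 10-8 for Kmt2d+/+ clones 1, 2 and 3. A clone is 1 cell line, so the p-values measure the spread between a few lines of 1 parent, and Kmt2d-/- clone 1 and Kmt2d+/+ clone 2 share a name only.

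Chemokines are small secreted proteins that bind G protein-coupled receptors and draw cells along their gradient. Those of the CC class, such as Ccl2 and Ccl7, attract monocytes, and those of the CXC class include neutrophil attractants (Cxcl1, Cxcl5) and the marrow retention factor Cxcl12. Csf1 keeps monocytes and osteoclast precursors alive, Il6 and Il11 signal through the shared receptor subunit gp130 to Jak and Stat proteins, and Il17b belongs to the interleukin 17 family. In bone and cartilage these factors are known for recruiting and maintaining haematopoietic and bone-resorbing cells, and many of their genes are classical targets of the transcription factors NF-kappaB and AP-1.

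The bases before the RefSeq start of a gene show whether letters that such factors can bind are present. RefSeq entries (GRCm38.p6) were matched for 6 of the 10 members. Ccl2, Ccl7 and Cxcl5 were not matched, and Il17b was not looked up, since its chromosome was left out of this step. Shown are the 250 bases upstream of the start of the 2 members with the highest levels, Cxcl12 and Csf1, and of the 3 other members with a match to the kappaB motif or to the AP-1 motif TGANTCA on either strand. Capitals mark the matches, and the sequences run 5′ to 3′ on the strand of the gene. Cxcl1 is at chr5:90890995-90891244 on the plus strand, Il6 at chr5:30012864-30013113 (plus), Csf1 at chr3:107760470-107760719 (minus), Il11 at chr7:4778142-4778391 (minus) and Cxcl12 at chr6:117168285-117168534 (plus).
Cxcl1: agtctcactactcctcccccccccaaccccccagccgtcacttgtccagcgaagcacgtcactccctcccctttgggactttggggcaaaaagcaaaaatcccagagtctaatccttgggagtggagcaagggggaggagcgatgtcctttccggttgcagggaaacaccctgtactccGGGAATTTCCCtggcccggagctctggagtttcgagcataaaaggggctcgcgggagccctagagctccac
Il6: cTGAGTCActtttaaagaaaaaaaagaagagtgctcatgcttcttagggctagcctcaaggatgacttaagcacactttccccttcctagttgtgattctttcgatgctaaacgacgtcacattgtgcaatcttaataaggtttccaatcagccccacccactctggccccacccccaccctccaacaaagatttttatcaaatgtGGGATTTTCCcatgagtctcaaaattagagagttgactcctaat
Csf1: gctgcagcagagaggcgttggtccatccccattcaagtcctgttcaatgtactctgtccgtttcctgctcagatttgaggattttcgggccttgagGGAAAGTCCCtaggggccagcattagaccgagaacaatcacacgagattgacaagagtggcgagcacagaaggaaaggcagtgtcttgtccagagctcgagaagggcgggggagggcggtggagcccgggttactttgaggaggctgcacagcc
Il11: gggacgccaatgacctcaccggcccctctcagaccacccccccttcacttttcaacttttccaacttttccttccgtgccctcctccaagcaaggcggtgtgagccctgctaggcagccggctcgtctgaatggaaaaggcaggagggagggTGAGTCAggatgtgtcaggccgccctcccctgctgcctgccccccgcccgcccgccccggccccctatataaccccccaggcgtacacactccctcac
Cxcl12: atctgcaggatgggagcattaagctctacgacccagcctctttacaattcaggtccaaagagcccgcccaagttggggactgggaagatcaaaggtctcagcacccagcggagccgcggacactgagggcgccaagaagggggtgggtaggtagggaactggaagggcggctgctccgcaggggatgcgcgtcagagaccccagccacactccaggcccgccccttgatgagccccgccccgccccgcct

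The kappaB letters begin 71 bases before the start of Cxcl1, where matches on both strands overlap, 44 bases before that of Il6 and 154 bases before that of Csf1. They are found in 3.9% of 32851 upstream windows of the same length. The AP-1 letters begin 249 bases before Il6 and 98 bases before Il11, and 6.75% of the windows hold them. No match to either motif lies in the window of Cxcl12, of Cxcl14 or of a more distant start of Il11. A match is a run of letters and does not show that a factor binds there.

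The libraries held 35792773 to 66237188 counts, the deposited values were estimated counts, and levels below are counts per 1000000 counts (CPM) of the TMM-scaled library. A floor of 3 counts corresponds to 0.0409 to 0.0859 CPM on this scale, and intervals on counts cover counting error only. Counts over the whole Kmt2d gene did not pass between genotypes (edgeR adjusted p = 0.363 at day 7 and 0.731 at day 0), and they do not measure the deleted part. The summed level of 10 chondrocyte markers was 26936 and 31348 CPM in the Kmt2d-/- clones at day 7, against 601 to 1250 CPM in the Kmt2d+/+ clones. Col2a1, the type II collagen gene, stood at 20471 and 24451 CPM in Kmt2d-/- clones, against 332, 126 and 253 CPM in Kmt2d+/+ clones 1, 2 and 3 at that day, a call lost without Kmt2d+/+ clone 1 or 3 or either Kmt2d-/- clone (edgeR adjusted p = 0.0523 to 0.179, against 0.0252 with all clones). The part of this difference in cartilage genes in the values below was not tested. In bulk RNA, fewer cells of a kind and less RNA per cell cannot be told apart. Whether reads were counted by strand is not given in the sources used here.

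The members covered a wide range of levels. Per kilobase of exon, Cxcl12 was the most abundant, at a mean of 63.1 CPM per kb in the Kmt2d-/- clones and 126 CPM per kb in the Kmt2d+/+ clones at day 7. At day 7 Il17b followed in the Kmt2d-/- clones at 11.4 CPM per kb, ahead of Csf1 at 5.79 CPM per kb. In the Kmt2d+/+ clones at day 7 Csf1 came after Cxcl12, at 19.4 CPM per kb, followed by Ccl2 at 1.98 and Cxcl1 at 1.03 CPM per kb. The other members were below 1 CPM per kb in every group at day 7. With 2 or 3 clones a group, whose values overlap for several members, the order of neighbours among the low members is not resolved. Of the 10 members 8 passed the filter on low counts, and Cxcl5 and Cxcl14 did not.

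**Figure D1:**
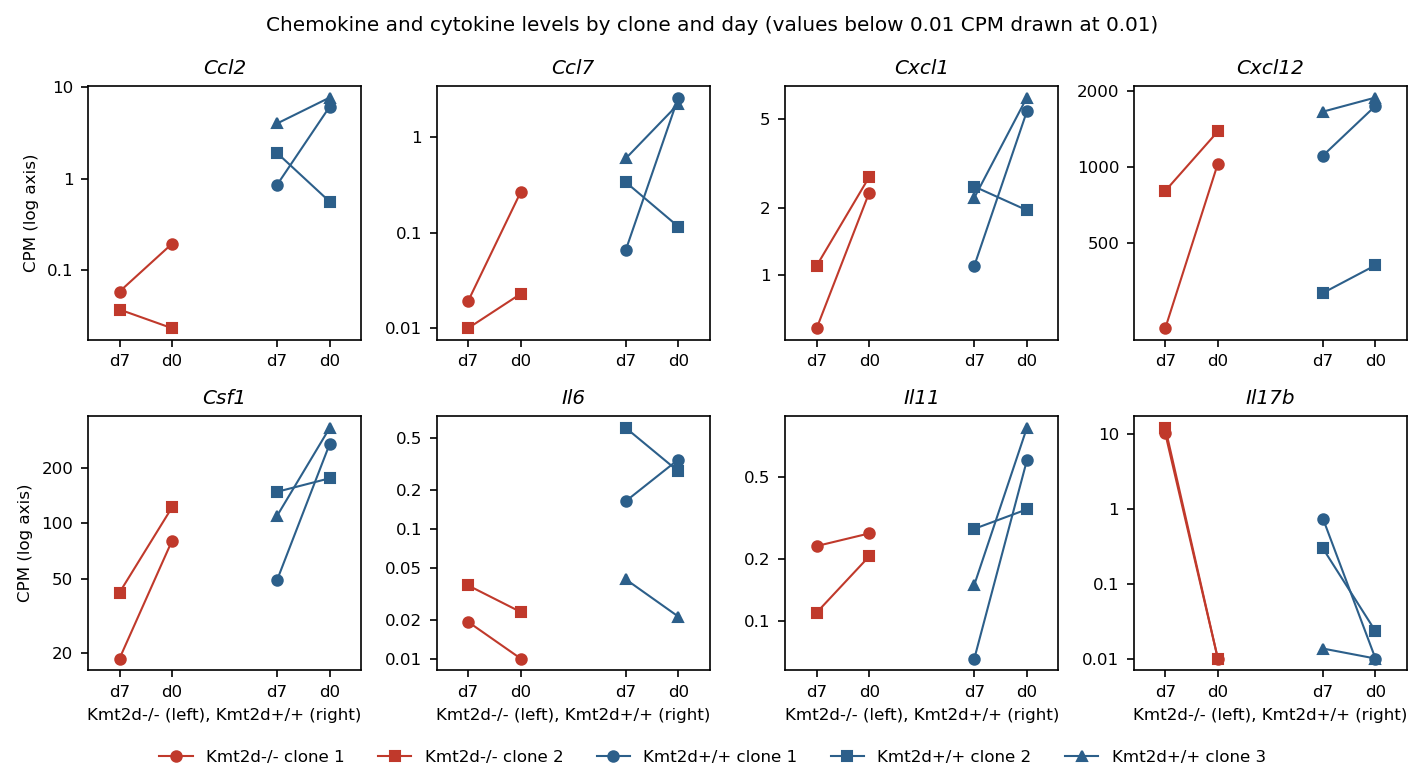
CPM (log axis) of the 8 tested members in each clone at day 7 (d7) and day 0 (d0), Kmt2d-/- clones in red on the left of each panel and Kmt2d+/+ clones in blue on the right; lines join the libraries of 1 clone, and values below 0.01 CPM are drawn at 0.01. Ccl2 lies below every Kmt2d+/+ clone in each Kmt2d-/- clone on either day, and Il17b reaches 10.1 and 12 CPM in the Kmt2d-/- clones at day 7, against at most 0.74 CPM in Kmt2d+/+ clones.

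The CC chemokines had at most 11 counts in any Kmt2d-/- library. Ccl2, the main attractant of monocytes (chromosome 11, 82035571 to 82037453, GRCm38), had 0.0577 CPM in Kmt2d-/- clone 1 and 0.0367 CPM in Kmt2d-/- clone 2 at day 7, which is 3 and 2 counts, against 0.855, 1.9 and 4.01 CPM in Kmt2d+/+ clones 1, 2 and 3. At day 0 it stood at 0.193 and 0.0229 CPM in the Kmt2d-/- clones, against 6.13, 0.557 and 7.71 CPM in the Kmt2d+/+ clones. Every Kmt2d-/- clone was below every Kmt2d+/+ clone at both days, while the Kmt2d+/+ clones spread widely, with clone 2 lowest at day 0. The mean was 0.0472 ± 0.0149 CPM (SD, n = 2) in Kmt2d-/- and 2.26 ± 1.61 CPM (SD, n = 3) in Kmt2d+/+ clones at day 7, a 45.7-fold lower level in the mutants that missed the threshold (log2 difference -5.51, SE 1.42, with an edgeR adjusted p = 0.0827). At day 0 the level was 43.8-fold lower (log2 difference -5.45, SE 1.38, with an edgeR adjusted p = 0.0717). DESeq2 did call Ccl2 lower at day 7 (adjusted p = 1.75e-04) and at day 0 (adjusted p = 5.95e-05). Without Kmt2d+/+ clone 2 the day 0 difference also passed in edgeR (log2 fold change -5.98, adjusted p = 0.0328), in a fit that called 6% of all genes. Leaving out 1 clone at a time gave log2 differences of -5.90 to -4.80 at day 7 and -7.57 to -4.61 at day 0.

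Ccl7, another attractant of monocytes, lies next to Ccl2 on chromosome 11 (82045712 to 82047525). Its level was 0.0192 and 0 CPM in Kmt2d-/- clones 1 and 2 at day 7, against 0.0658, 0.339 and 0.6 CPM in Kmt2d+/+ clones 1, 2 and 3. At day 0 it was 0.266 and 0.0229 CPM in the Kmt2d-/- clones, against 2.61, 0.116 and 2.23 CPM in the Kmt2d+/+ clones. The genotypes did not overlap at day 7 but did at day 0, where Kmt2d-/- clone 1 exceeded Kmt2d+/+ clone 2. With 1 mutant count at day 7, the rate of counts was lower by a factor of 37.4 in the Kmt2d-/- clones (exact binomial 95% interval 6.51 to 1500), and the difference did not pass (edgeR adjusted p = 0.207). The day 0 difference did not pass either (log2 difference -3.50, SE 1.49, with an edgeR adjusted p = 0.232). It ran from -6.03 without Kmt2d-/- clone 1 to -2.62 without Kmt2d-/- clone 2. In Kmt2d+/+ clones 1 and 3 both CC genes were lower at day 7 than at day 0, and in Kmt2d+/+ clone 2 both were higher.

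Among the CXC chemokines, Cxcl1 was lower in the Kmt2d-/- clones at day 7 by a smaller amount, and Cxcl12 was abundant in both genotypes. Cxcl1, a neutrophil attractant (chromosome 5, 90891241 to 90893115), whose upstream bases hold the kappaB letters shown above, stood at 0.577 and 1.1 CPM in Kmt2d-/- clones at day 7, against 1.1, 2.49 and 2.22 CPM in Kmt2d+/+ clones 1, 2 and 3. Its day 0 levels were 2.34 and 2.75 CPM in Kmt2d-/- clones, against 5.41, 1.95 and 6.24 CPM in Kmt2d+/+ clones. At day 7 the groups only just separated, Kmt2d-/- clone 2 and Kmt2d+/+ clone 1 both rounding to 1.1 CPM, and at day 0 they overlapped. Neither difference passed (day 7 log2 difference -1.21, SE 0.59, with an edgeR adjusted p = 0.298; day 0 -0.83, SE 0.58, with an edgeR adjusted p = 0.459).

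Cxcl12, the retention factor for haematopoietic stem cells that acts through Cxcr4 (chromosome 6, 117168535 to 117181367), stood at 229 and 803 CPM in Kmt2d-/- clones at day 7, against 1108, 316 and 1656 CPM in Kmt2d+/+ clones. Undifferentiated cells held 1029 and 1382 CPM in Kmt2d-/- clones, against 1746, 407 and 1884 CPM in Kmt2d+/+ clones. Kmt2d+/+ clone 2 held the lowest Kmt2d+/+ level at both days, and the genotypes overlapped at both. The differences did not pass (day 7 log2 difference -0.99, SE 0.82, with an edgeR adjusted p = 0.558; day 0 -0.16, SE 0.80, with an edgeR adjusted p = 0.936), and with 1 clone left out the log2 difference ran from -2.17 to -0.35 at day 7, the first without Kmt2d-/- clone 2 and the other without Kmt2d-/- clone 1. The day 0 value ranged from -0.59 to 0.13 over the alternatives. Each clone held less Cxcl12 at day 7 than at day 0, by a factor of 4.5 and 1.72 in Kmt2d-/- clones 1 and 2 and of 1.58, 1.29 and 1.14 in Kmt2d+/+ clones 1, 2 and 3. With 1 clone left out, the log2 difference between days in Kmt2d-/- clones ran from -2.17 without clone 2 to -0.79 without clone 1. This difference did not pass in either genotype (Kmt2d-/- log2 fold change -1.22, SE 0.89, with an edgeR adjusted p = 0.606; Kmt2d+/+ -0.39, SE 0.71, with an edgeR adjusted p = 0.786).

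The 2 other CXC members were at or near the detection limit. Cxcl5, a neutrophil attractant on chromosome 5 (90759360 to 90761624), had 4 and 9 counts in Kmt2d-/- clones and 3, 6 and 8 in Kmt2d+/+ clones at day 7, and 3 to 7 counts in every library at day 0. Cxcl14, a chemokine made by epithelium and fibroblasts (chromosome 13, 56288643 to 56296551), had 0 counts in all 10 libraries, which allows at most 0.0409 to 0.0859 CPM depending on the library.

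Csf1, the growth factor of macrophages and osteoclast precursors (chromosome 3, 107741048 to 107760469), was lower in the Kmt2d-/- clones at both days and lower at day 7 in each clone. It stood at 18.7 and 42.4 CPM in Kmt2d-/- clones at day 7, against 49.6, 148 and 110 CPM in Kmt2d+/+ clones 1, 2 and 3. The day 0 levels were 80.7 and 122 CPM in Kmt2d-/- clones, against 268, 175 and 327 CPM in Kmt2d+/+ clones. The genotypes did not overlap at either day, and clone 1 was the lowest of its genotype at day 7 in both genotypes. The mean was 30.6 ± 16.8 CPM (SD, n = 2) in Kmt2d-/- and 102 ± 49.5 CPM (SD, n = 3) in Kmt2d+/+ clones at day 7, a 3.35-fold lower level that missed the threshold in edgeR (log2 fold change -1.74, SE 0.52, adjusted p = 0.117) and passed in DESeq2 (adjusted p = 0.00798). At day 0 the level was 2.53-fold lower (log2 difference -1.34, SE 0.51, with an edgeR adjusted p = 0.187). Between the days it differed by a log2 fold change of -1.73 in Kmt2d-/- clones (SE 0.55, edgeR adjusted p = 0.18, DESeq2 adjusted p = 0.0281) and of -1.32 in Kmt2d+/+ clones (SE 0.45, edgeR adjusted p = 0.111, DESeq2 adjusted p = 0.0222). With the day 7 and day 0 libraries of a clone paired by a random clone block in limma-voom, the day difference of Csf1 passed in Kmt2d-/- clones (adjusted p = 0.0472, where 8.42% of all genes passed) and in Kmt2d+/+ clones (adjusted p = 0.0221, where 22.4% passed). With a fixed clone term in edgeR it passed in neither (adjusted p = 0.0875 and 0.0577). The genotype difference at day 7 ran from -2.45 to -1.28 with 1 clone left out. Csf1r, which encodes the Csf1 receptor of macrophages, stood at 0.115 and 0.293 CPM in Kmt2d-/- clones, against 0.0987, 0.118 and 0.123 CPM in Kmt2d+/+ clones at day 7, not far above the floor.

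Il6 and Il11 were both scarce. Il6, the founding cytokine of the gp130 family (chromosome 5, 30013114 to 30019981), had 1 and 2 counts in Kmt2d-/- clones at day 7, against 10, 41 and 3 counts in Kmt2d+/+ clones 1, 2 and 3. At day 0 it had 0 and 1 counts in Kmt2d-/- clones, against 12, 12 and 1 in Kmt2d+/+ clones. Kmt2d+/+ clone 3 resembled the mutants at both days, and the groups separated at day 7 by 1 count only. The rate of counts was lower by a factor of 9.49 at day 7 (exact binomial 95% interval 3.08 to 47.5) and of 16.9 at day 0 (2.77 to 696) in the Kmt2d-/- clones, and neither difference passed (edgeR adjusted p = 0.273 and 0.248).

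Il11, a gp130 cytokine that promotes bone formation and osteoclast development (chromosome 7, 4772373 to 4782859), stood at 0.231 and 0.11 CPM in Kmt2d-/- clones at day 7, against 0.0658, 0.28 and 0.15 CPM in Kmt2d+/+ clones. At day 0 it stood at 0.266 and 0.206 CPM in Kmt2d-/- clones, against 0.601, 0.348 and 0.864 CPM in Kmt2d+/+ clones. The genotypes separated at day 0 and overlapped at day 7. The day 0 level was 2.55-fold lower in Kmt2d-/- clones and did not pass (log2 difference -1.35, SE 0.71, with an edgeR adjusted p = 0.321), and at day 7 the log2 fold change was 0.04 (SE 0.70, edgeR adjusted p = 0.987). In Kmt2d+/+ clones the level at day 7 was 3.61-fold below that at day 0 (log2 difference -1.85, SE 0.62, with an edgeR adjusted p = 0.109), and in Kmt2d-/- clones the log2 fold change was -0.47 (SE 0.77, edgeR adjusted p = 0.85). Paired by a random clone block in limma-voom, the Kmt2d+/+ difference between days passed (log2 difference -1.94, adjusted p = 0.0277), and with a fixed clone term in edgeR it did not (adjusted p = 0.0854). Without Kmt2d+/+ clone 2 the unpaired log2 difference was -2.72. The median log2 difference of the 66 tested genes within 5 Mb of Il11 was 0.42 at day 7 and 0.34 at day 0, with 0.58 in Kmt2d-/- clone 1 and -0.07 in clone 2 at day 7, and its part in the Il11 values was not tested. Around the other members this median lay between -0.23 and 0.30 at day 7.

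Il17b, an interleukin 17 ligand that binds the receptor Il17rb (chromosome 18, 61684887 to 61692538), was the member with a higher level in Kmt2d-/- clones at day 7 and no overlap. Its level was 10.1 and 12 CPM in Kmt2d-/- clones 1 and 2 at day 7 (523 and 657 counts), against 0.74, 0.295 and 0.0136 CPM in Kmt2d+/+ clones 1, 2 and 3 (45, 20 and 1 counts). At day 0 all Kmt2d-/- libraries had 0 counts, and in the Kmt2d+/+ clones there was 1 count in clone 2 and none in clones 1 and 3. The gene was thus undetected before differentiation in either genotype beyond 1 count, and at day 7 both mutant clones were above all Kmt2d+/+ clones. Among Kmt2d+/+ clones at day 7, clone 3 was lowest and clone 1 highest. Taking 3 counts per library as the floor, Il17b was at least 157-fold higher at day 7 than at day 0 in Kmt2d-/- clones, and this was the only one of the 32 tests of a member between 2 groups to pass in edgeR (adjusted p = 0.0475), where 1.27% of all genes passed in that comparison. That call sits close to the threshold: it was lost without any 1 of the 5 clones (adjusted p = 0.069 to 0.387), with flow-cell run 2 alone (0.0764) and with the Kmt2d-/- libraries fitted alone (0.0755). Between genotypes at day 7 the level was 31.7-fold higher in Kmt2d-/- clones (log2 fold change 4.98, SE 1.12), which missed the threshold in edgeR (adjusted p = 0.063) and passed in DESeq2 (adjusted p = 4.78e-04) and limma-voom (adjusted p = 0.015). With 1 clone left out the log2 difference ran from 4.41 to 6.15. In the Kmt2d+/+ clones the day 7 rate of counts was 41 times the day 0 rate (exact binomial 95% interval 7.11 to 1644), with an edgeR adjusted p of 0.0877. Pairing the libraries of a clone by a fixed clone term brought that difference past the threshold (edgeR adjusted p = 0.0236), in a fit that called 18% of all genes, and DESeq2 also passed it (adjusted p = 0.00802), while a random clone block in limma-voom did not (adjusted p = 0.103).

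**Figure D2:**
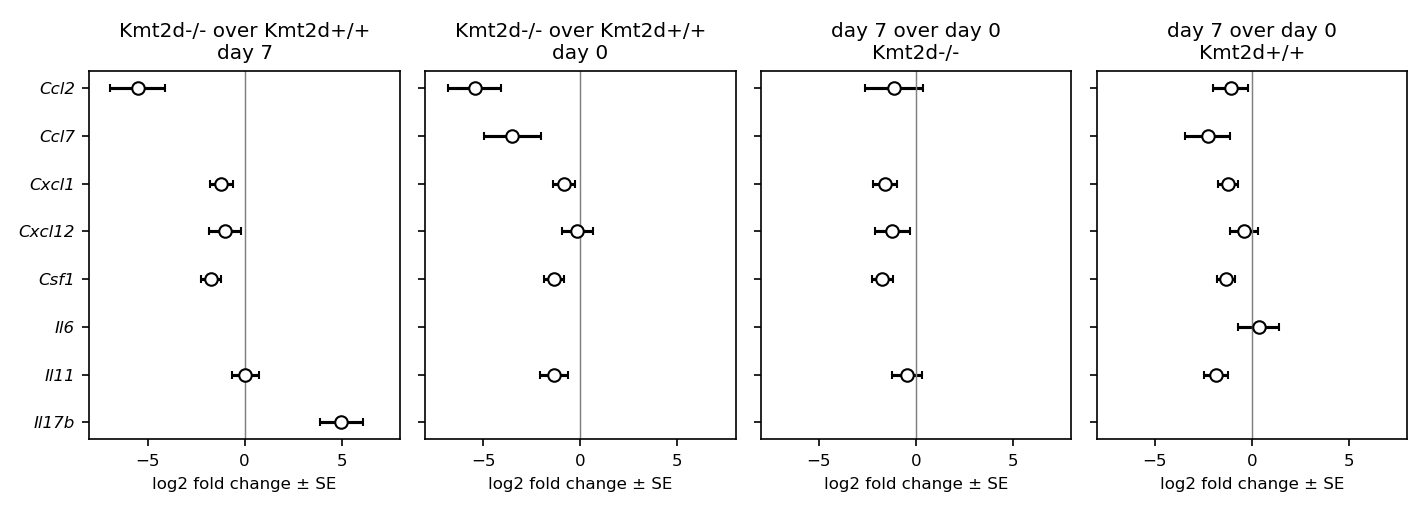
Log2 fold changes (points) with their standard errors (bars) for the tested members in 4 comparisons of the edgeR fit; filled points would mark an adjusted p under 0.05, and a gap means that a group had at most 3 counts in all, so that no fitted fold is drawn. All points drawn are open, Ccl2 has the most negative values between genotypes (-5.51 and -5.45), and at day 7 Il17b (4.98) lies farthest above 0, with Il11 at 0.04.

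Counted over the members, 0 of the 8 tested passed between genotypes at day 7, where 1.87% of all 15467 tested genes passed in edgeR, and 0 passed at day 0, where 2.15% did. Between days 1 passed in Kmt2d-/- clones (1.27% of all genes) and 0 in Kmt2d+/+ clones (5.08% of all genes). DESeq2 called 3 members at day 7 (Ccl2, Csf1 and Il17b; 10.3% of all genes) and 1 at day 0 (Ccl2; 10.6%). Between days it called 2 in Kmt2d-/- clones (6.37% of all genes) and 2 in Kmt2d+/+ clones (14.7%), in both cases Csf1 and Il17b. Limma-voom called 1 member at day 7 (Il17b; 3.45% of all genes). The difference of the day effects between genotypes passed for 0 members and 0% of all genes in edgeR, where 568 genes had an unadjusted p under 0.05, while DESeq2 called 27 genes and limma-voom 0. None of those 27 was a member.

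The groups did not overlap, with Kmt2d-/- lower, for 5 of the 8 tested members at day 7 (Ccl2, Ccl7, Cxcl1, Csf1 and Il6), against 19.8% of all tested genes. With Kmt2d-/- higher this held for 1 member, Il17b, against 17.9% of all tested genes. At day 0 it held for 3 members with Kmt2d-/- lower (Ccl2, Csf1 and Il11), against 18.3% of all tested genes. Ccl2, Ccl7 and Il6 had at most 3 counts in each Kmt2d-/- library at day 7. These members could pass the low-count filter only through Kmt2d+/+ libraries. Their place on the lower side, also that of Ccl2 at day 0, was therefore largely set in advance. The level at day 7 was below that at day 0 in all 5 clones for 3 members, Cxcl12, Csf1 and Il11, against 18.8% of all tested genes. These shares describe a list drawn up with results known, and no test was run over it.

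Over the 10 libraries most pairs of members other than Il17b had a positive correlation, and Il17b had a negative one with each. Pearson's r of log2(CPM + 0.5) was 0.91 between Ccl2 and Ccl7 and 0.94 between Cxcl1 and Csf1, while r of Il17b with the other tested members ran from -0.81 with Csf1 to -0.26 with Il6. Il6 and Cxcl12 had an r of -0.33. Genes most like Csf1 were the heat shock factor gene Hsf1 (r = 0.975), Pgs1 (0.973) and BC024978 (0.967), and those most like Ccl2 were the ETS factor gene Etv4 (r = 0.971), Dnajc13 (0.965) and the macrophage scavenger receptor gene Msr1 (0.961). Il17b was most like D330020A13Rik (r = 0.995), Zfp385c (0.991) and Odf3l2 (0.983). Msr1 and Odf3l2 had means of only 0.0823 and 0.0728 CPM over the 10 libraries, within the range of the floor of 3 counts. Ccl7 was most like Cxcr2 (r = 0.976), a receptor gene at 0.712 to 1.35 CPM, Cxcl1 like Tbl1x (0.966), Cxcl12 like Heatr6 (0.946) and Il11 like Abcf1 (0.973). The 10 points share clones, genotype and day, so these values rank likeness and carry no p.

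Genes around the members in the same pathways were read from lists by role. Of 30 other chemokine ligand genes 13 were tested at day 7, of which 3 had a positive log2 difference, as did 7519 of all 15467 tested genes. Of these 13, 1 passed, as lower in Kmt2d-/- clones, where 1.87% of all genes passed. The list median log2 difference was -1.41 (-1.19 with the ligand that had no counts in 1 group set to its bound) beside -0.02 over all genes. The ligand that passed was Cx3cl1, the membrane-bound chemokine fractalkine, at 23 and 12 CPM in Kmt2d-/- clones, against 39.3, 62 and 53.8 CPM in Kmt2d+/+ clones (log2 difference -1.56, SE 0.31, with an edgeR adjusted p = 0.0469). That call was lost without any 1 of the 5 clones (adjusted p = 0.0642 to 0.225). Ccl9, a macrophage chemokine, fell in Kmt2d+/+ clones to 0.0822, 0.0737 and 0.0818 CPM at day 7, against 4.87, 1.32 and 2.49 CPM at day 0 (log2 difference -5.15, SE 0.69, with an edgeR adjusted p = 0.0126), and this was lost without Kmt2d+/+ clone 1 (0.108) or 3 (0.201). Ccl9 was also lower at day 7 in Kmt2d-/- clones, at 0.0769 and 0.0733 CPM, against 0.29 and 1.01 CPM at day 0. That difference did not pass (log2 difference -3.07, SE 0.81, with an edgeR adjusted p = 0.112). The day 7 values of Ccl9 rest on 5, 5 and 6 counts in Kmt2d+/+ and 4 and 4 counts in Kmt2d-/- clones, close to the floor. Of 23 chemokine receptor genes 14 were tested and 0 passed in any of the 4 comparisons between 2 groups (the shares of all genes are those above). Ackr3, the scavenging receptor of Cxcl12, was the most abundant of them, at 46.7 and 24.4 CPM in Kmt2d-/- clones, against 26.5, 6.84 and 7.94 CPM in Kmt2d+/+ clones at day 7. Cxcr4, the signalling receptor of Cxcl12, stood at 0.346 and 0.477 CPM in Kmt2d-/- clones, against 0.789, 0.162 and 0.886 CPM in Kmt2d+/+ clones.

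Within the interleukin 17 family a second ligand was higher and a receptor lower in the mutants. Of 11 family genes other than Il17b 6 were tested at day 7, with a median log2 difference of -0.19 beside -0.02 over all genes. Of these 6, 1 passed as higher and 1 as lower, where 1.87% of all genes passed. Il17d, a ligand of the family, stood at 32.1 and 18.6 CPM in Kmt2d-/- clones, against 2.19, 2.62 and 2.63 CPM in Kmt2d+/+ clones at day 7, without overlap. It was 10.2-fold higher (log2 difference 3.35, SE 0.46, with an edgeR adjusted p = 0.0182). The call was lost without Kmt2d+/+ clone 1 (0.0661), Kmt2d+/+ clone 3 (0.0793) or Kmt2d-/- clone 1 (0.0917). Il17rc, a co-receptor chain for interleukin 17A and F, stood at 22.7 and 21.3 CPM in Kmt2d-/- clones, against 48.4, 57.9 and 45.5 CPM in Kmt2d+/+ clones. It was 2.3-fold lower (log2 difference -1.20, SE 0.20, with an edgeR adjusted p = 0.0316), and the call was lost without any 1 of the 5 clones (0.0528 to 0.173). Il17ra, the shared receptor chain, stood at 2.5 and 0.898 CPM in Kmt2d-/- clones, against 0.74, 1.87 and 1.73 CPM in Kmt2d+/+ clones, with overlap.

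**Figure D3:**
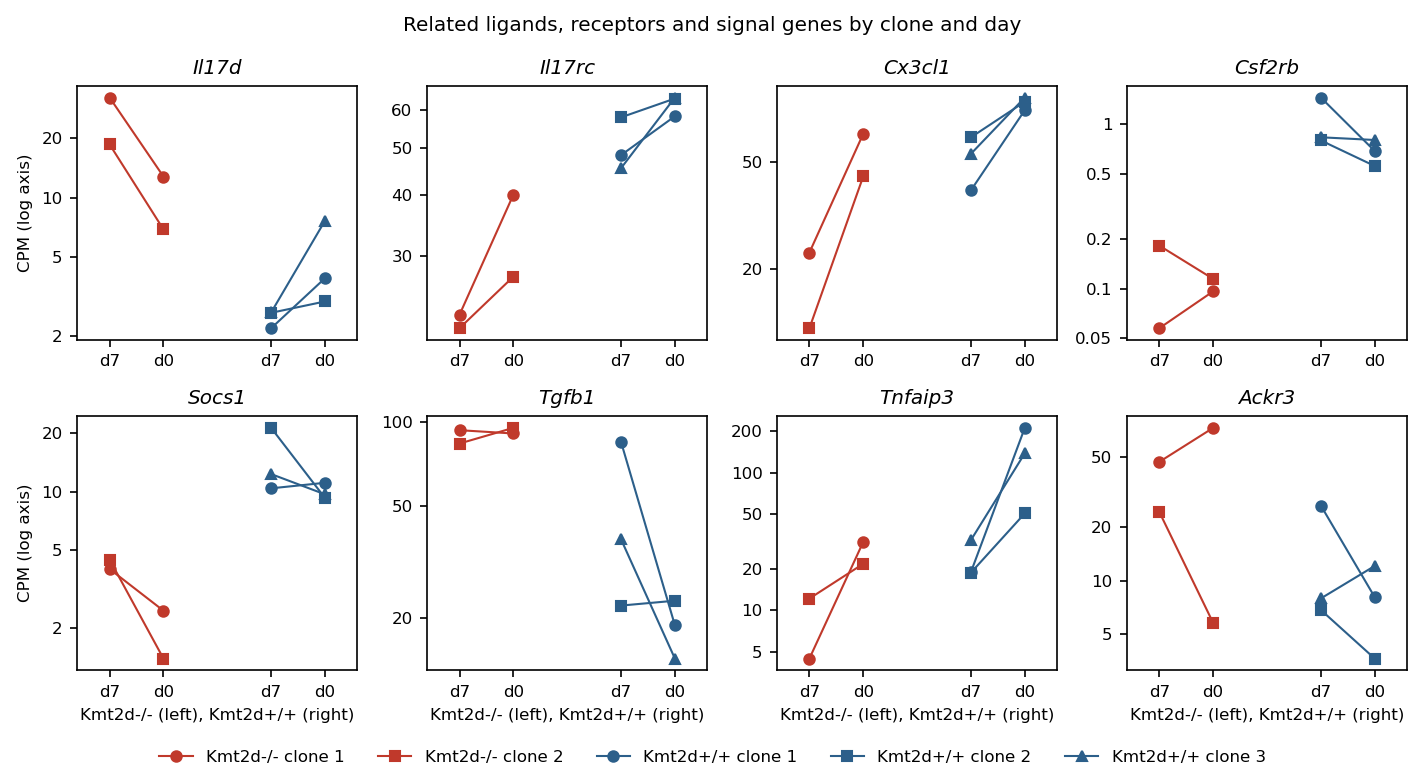
CPM (log axis) of 8 genes related to the members in each clone at day 7 (d7) and day 0 (d0), Kmt2d-/- clones in red on the left of each panel and Kmt2d+/+ clones in blue on the right; lines join the libraries of 1 clone. At day 7 Il17d is higher in both Kmt2d-/- clones (32.1 and 18.6 CPM), and Il17rc, Cx3cl1, Csf2rb and Socs1 are lower in both than in every Kmt2d+/+ clone.

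Of the receptors and signal carriers of Il6 and Il11, few passed. Il6st, which encodes gp130, stood at 217 and 270 CPM in Kmt2d-/- clones, against 289, 354 and 312 CPM in Kmt2d+/+ clones at day 7. It fell in Kmt2d+/+ clones to a mean of 318 ± 32.9 CPM at day 7, against 507 ± 29.5 CPM at day 0 (SD, n = 3 each; log2 fold change -0.67, SE 0.15, edgeR adjusted p = 0.0439), a call lost without any 1 of the 5 clones (0.0501 to 0.333). It was the only one of 11 tested genes of that family list to pass in that comparison, where 5.08% of all genes passed. The list median was 0.06 beside 0.03 over all genes. Both Kmt2d-/- clones also held less Il6st at day 7 than at day 0, when they stood at 434 and 345 CPM. The size was similar there (log2 difference -0.68), but the edgeR adjusted p of 0.13 lay above the threshold. Il6ra, the Il6 receptor gene, stood at 1.48 and 0.917 CPM in Kmt2d-/- clones, against 3.45, 5.1 and 3.72 CPM in Kmt2d+/+ clones at day 7, and the difference missed the threshold (edgeR adjusted p = 0.0534).

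The median log2 difference of 15 Jak and Stat signal and feedback genes at day 0 was 0.21 beside 0.01 over all genes. Of these 15, 1 passed between genotypes, where 2.15% of all genes did. It was Socs1, an inhibitor of Jak kinases induced by cytokines and interferon, at 2.46 and 1.4 CPM in Kmt2d-/- clones, against 11.1, 9.28 and 9.69 CPM in Kmt2d+/+ clones (log2 difference -2.37, SE 0.40, with an edgeR adjusted p = 0.0274). The call was lost without Kmt2d+/+ clone 1 (0.105) or 3 (0.182) and without Kmt2d-/- clone 1 (0.0836) or 2 (0.145). Socs2, a feedback inhibitor of growth hormone signalling, rose in Kmt2d-/- clones to 21.5 and 29.7 CPM at day 7, against 7.03 and 4.88 CPM at day 0 (log2 difference 2.10, SE 0.34, with an edgeR adjusted p = 0.0328), a call lost without any 1 of the 5 clones (0.0508 to 0.307). Socs2 was also higher at day 7 in Kmt2d+/+ clones, which did not pass (log2 difference 0.83, SE 0.27, with an edgeR adjusted p = 0.101). Of 6 tested genes of other colony stimulating factors and receptors (list median 0.06), 1 passed at day 7, where 1.87% of all genes did. It was Csf2rb, the shared receptor chain for Csf2, Il3 and Il5. It stood at 0.0577 and 0.183 CPM in Kmt2d-/- clones, against 1.45, 0.796 and 0.832 CPM in Kmt2d+/+ clones (log2 difference -3.06, SE 0.61, with an edgeR adjusted p = 0.0469), and the call was lost without any 1 of the 5 clones (0.0609 to 0.213). Without Kmt2d-/- clone 2 its log2 fold change was -4.10, and without clone 1 it was -2.47. The Csf2rb call was also lost with flow-cell run 1 alone (edgeR adjusted p = 0.123) and run 2 alone (0.0989). No filter on low counts (0.0528) and only the groups compared (0.119) lost it too. Its Kmt2d-/- values at day 7 were 3 and 10 counts, the first at the floor.

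Among NF-kappaB genes the calls were made between days. Of 19 tested NF-kappaB factor and feedback genes 0 passed between genotypes at either day, with medians of -0.43 at day 7 and -0.14 at day 0. Rel, an NF-kappaB subunit, fell in Kmt2d-/- clones to 16.7 and 18.1 CPM at day 7, against 61.7 and 36.3 CPM at day 0 (log2 difference -1.50, SE 0.28, with an edgeR adjusted p = 0.0447). Its difference in Kmt2d+/+ clones had the same direction and did not pass (log2 difference -0.71, SE 0.22, with an edgeR adjusted p = 0.0916). Tnfaip3, the feedback inhibitor A20, fell in Kmt2d+/+ clones to 19, 18.8 and 32.4 CPM at day 7, against 211, 50.6 and 138 CPM at day 0 (log2 difference -2.51, SE 0.55, with an edgeR adjusted p = 0.0394). It was lower at day 7 in Kmt2d-/- clones too, which did not pass (log2 difference -1.67, SE 0.66, with an edgeR adjusted p = 0.277). Both calls depended on single clones: that of Rel was lost without any 1 of the 5 (0.0572 to 0.449), and that of Tnfaip3 without Kmt2d+/+ clone 1 (log2 fold change -1.88, 0.26) or 3 (0.253) and without Kmt2d-/- clone 1 (0.0545) or 2 (0.0559). The list median was -0.41 in Kmt2d-/- clones and -0.40 in Kmt2d+/+ clones between days. At day 0 Tnfaip3 stood at 31.4 and 21.8 CPM in Kmt2d-/- clones, below the 3 Kmt2d+/+ values, and that difference missed the threshold (edgeR adjusted p = 0.0873). Tgfb1, the growth factor TGF-beta 1, was the only one of 14 tested interleukin 1, TNF and related genes to pass between genotypes. It passed at day 0, where 2.15% of all genes did (log2 difference 2.31, SE 0.46, with an edgeR adjusted p = 0.0433). Its day 0 levels were 90.9 and 95.2 CPM in Kmt2d-/- clones, against 18.8, 23 and 14.3 CPM in Kmt2d+/+ clones. That call was lost without Kmt2d+/+ clone 1 (0.0696) or 3 (0.239) and without Kmt2d-/- clone 1 (0.143) or 2 (0.161). None of the 5 tested C/EBP genes passed in any comparison between 2 groups, and Cebpg, the most abundant, stood at 44.4 and 47.1 CPM in Kmt2d-/- clones, against 69.1, 69.6 and 64.9 CPM in Kmt2d+/+ clones at day 7.

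Markers of immune cells, which also make and receive these signals, were low throughout. The summed level of 13 immune markers was 4.15 and 4.46 CPM in Kmt2d-/- clones, against 8.26 to 14.6 CPM in Kmt2d+/+ clones at day 7, and 3.49 to 4.28 CPM, against 7.79 to 9.75 CPM, at day 0. Of them 6 were tested and 0 passed, and Adgre1, Tyrobp and Cd3e, which mark macrophages, myeloid cells and T cells, had at most 3 counts in every library. The most abundant by its mean over all libraries was Cd74, at 0.0962 and 1.25 CPM in Kmt2d-/- clones, against 3.49, 5.91 and 9.27 CPM in Kmt2d+/+ clones at day 7. The part of these markers in the lower Ccl2 and Ccl7 of the mutants was not tested. Endothelial markers summed to 8.27 and 9.52 CPM in Kmt2d-/- clones, against 11.6 to 13.9 CPM in Kmt2d+/+ clones at day 7, with 0 of 4 tested passing, and Pecam1, the most abundant, stood at 5.44 and 4.46 CPM, against 6.4, 6.19 and 8.17 CPM. Adipocyte and marrow stromal markers summed to 51.4 and 51.9 CPM, against 56.7 to 176 CPM, with 0 of 4 passing, and Lpl, the most abundant, stood at 38.6 and 36.7 CPM, against 46.5, 159 and 78 CPM. Osteoblast markers summed to 1541 and 2036 CPM, against 2047 to 2404 CPM, with 0 of 7 passing between genotypes. Between days the log2 difference was positive for 7642 of 15467 tested genes in Kmt2d-/- clones and for 8027 in Kmt2d+/+ clones. All 7 osteoblast markers had a positive one in each genotype. In Kmt2d+/+ clones 5 of them passed, where 5.08% of all genes did. The largest changes among these 5 were in Dmp1, Ibsp and Bglap (log2 differences 6.33, 4.33 and 3.43, edgeR adjusted p = 0.0381, 0.0392 and 0.0292). In Kmt2d-/- clones Bglap, which encodes osteocalcin, alone passed (4.96, edgeR adjusted p = 0.0448), where 1.27% of all genes did. Of 7 tested tendon and fibroblast markers Scx alone passed, as lower in Kmt2d-/- clones at 11.6 and 11.2 CPM, against 42.2, 26.3 and 33.4 CPM (edgeR adjusted p = 0.0346), and this was lost without Kmt2d+/+ clone 1 or 3 or either Kmt2d-/- clone (0.0818 to 0.179). Between genotypes at day 7, as for Scx, 1.87% of all genes passed and 7519 of 15467 had a positive log2 difference. All 10 chondrocyte markers had a positive one there (median 3.50), and 3 passed, Col2a1, Matn1 and Matn3. Each of these 3 calls was lost without at least 1 clone (edgeR adjusted p up to 0.198). Between days all 10 chondrocyte markers had a positive log2 difference in each genotype. In Kmt2d-/- clones 3 passed, Matn1, Matn3 and Comp (log2 differences 8.50, 4.95 and 5.58, edgeR adjusted p = 0.0114, 0.0305 and 0.0439). In Kmt2d+/+ clones 5 of the 10 passed, with the largest changes among these 5 in Matn1, Col9a1 and Col2a1 (5.89, 5.79 and 3.95, edgeR adjusted p = 0.00741, 0.0276 and 0.0423). The fibroblast marker Pdgfra also passed there, as higher at day 7 (2.59, edgeR adjusted p = 0.0394). Each of these calls of a marker between days was lost without Kmt2d+/+ clone 3 (adjusted p = 0.0658 to 0.324) and without at least 1 other clone. Leaving out 1 clone also moved their size in Kmt2d+/+ clones, with log2 differences of 5.56 to 6.72 for Dmp1, 2.80 to 5.53 for Ibsp, 5.28 to 6.79 for Matn1, 3.83 to 7.09 for Col9a1, 3.13 to 5.67 for Col2a1 and 1.94 to 3.03 for Pdgfra. In Kmt2d-/- clones they were 4.11 to 6.12 for Bglap, 7.68 to 9.49 for Matn1 and 4.87 to 5.89 for Comp.

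Genes of the interferon response differed among clones of the same genotype at day 7, and some chemokines moved with them. The sum of 12 such genes was 85.4 and 606 CPM in Kmt2d-/- clones 1 and 2, against 232, 4971 and 1181 CPM in Kmt2d+/+ clones 1, 2 and 3. Cxcl10, a T cell attractant induced by interferon, stood at 0.962 and 2.44 CPM in Kmt2d-/- clones, against 0.691, 46.7 and 12.2 CPM in Kmt2d+/+ clones. Ccl5, another T cell attractant, stood at 0.0962 and 0.348 CPM in Kmt2d-/- clones, against 0.559, 14.1 and 2.26 CPM in Kmt2d+/+ clones. In each of these 3 measures Kmt2d+/+ clone 2 was highest and clone 1 the lowest of the Kmt2d+/+ clones. Among the Kmt2d+/+ clones at day 7, Il6, Csf1, Cxcl1 and Il11 were also highest in clone 2, while Ccl2, Ccl7 and Cxcl12 were highest in clone 3 and Il17b in clone 1. None of the 12 interferon genes passed between genotypes at day 7 or at day 0, with medians of -3.09 and -1.05, and their part in the chemokine values was not tested. Between days Isg15 and Ifit3 rose in Kmt2d+/+ clones (log2 fold changes 8.12 and 7.01, edgeR adjusted p = 0.0347 and 0.0381), Isg15 to 13.4, 341 and 27.9 CPM at day 7, against 0.115, 1.07 and 0.169 CPM at day 0. Both were also higher at day 7 in Kmt2d-/- clones, which did not pass (log2 fold changes 5.17 and 3.64, edgeR adjusted p = 0.289 and 0.335). The call of Ifit3 was lost without any 1 of the 5 clones (0.0611 to 0.276), and that of Isg15 without any but Kmt2d+/+ clone 2 (0.0553 to 0.242). Without Kmt2d+/+ clone 2 the log2 fold changes were 7.14 for Isg15 and 5.81 for Ifit3.

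**Figure D4:**
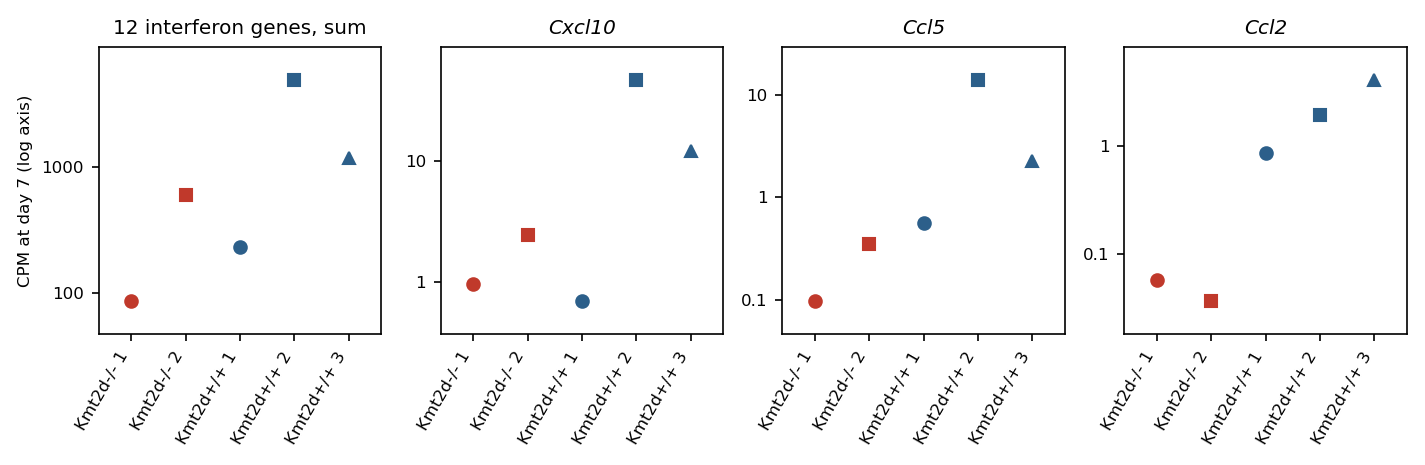
CPM at day 7 (log axis) in each clone, for the sum of 12 interferon response genes, for the interferon-induced chemokines Cxcl10 and Ccl5, and for Ccl2; 1 point is 1 library, Kmt2d-/- clones in red on the left and Kmt2d+/+ clones in blue on the right. Kmt2d+/+ clone 2 is highest in the first 3 panels (4971, 46.7 and 14.1 CPM), and Kmt2d+/+ clone 3 in that of Ccl2 (4.01 CPM).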

How the data were processed

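Estimated counts per gene were deposited by the authors for 10 libraries, each in 2 columns, 1 for each flow-cell run (20 columns, 0 of them unmatched to a sample). Salmon, edgeR, limma, DESeq2 and the build GRCm38 are named per the submitters' processing notes, with no version or role stated in the sources used here. Runs correlated at 0.988 to 0.995 and are technical, so they were summed and the sums rounded. Gene names and positions came from GENCODE M21 and promoters from RefSeq GRCm38.p6. With edgeR 4.0.16 (R 4.3.3), filterByExpr kept 15467 genes, counts were TMM scaled, and 1 quasi-likelihood fit over 4 groups (6 residual degrees of freedom, common biological coefficient of variation 0.385) gave each contrast, with Benjamini-Hochberg adjustment over all genes and a threshold of 0.05. The fit was tested on simulated data. DESeq2 1.42.0, limma 3.58.1 (voom), other scalings and filters, single runs, only the groups compared, clone blocks and leaving out each clone were alternatives.

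The 10 members and the gene lists were chosen with earlier results of these data known. Text names all members and, from each list, up to 3 genes past the threshold that reached a group mean of 1 CPM, by size of change, or else the most abundant gene, and also receptors of the members and, for each member, the genes with the most similar profile (that of Il6 is not reported here). Of 222 list genes 1 was not found. The day 7 and day 0 libraries of a clone come from the same cell line and so are pairs. The main edgeR fit has no clone term and treats these libraries as independent. Their deviations from the group means correlated at 0.506 in Kmt2d-/- clones (equal in both by construction) and at 0.395, 0.595 and 0.522 in Kmt2d+/+ clones. Clones are not paired across genotypes. With 2 or 3 clones a group, no check for single outlying samples was made.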

Additional observations from a re-analysis of the deposited data

How the results depend on the processing

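Over 36 comparisons of a member, 530 alternative values were computed, of which 489 kept their direction and their side of the threshold, 7 lost a call (all of Il17b between days in Kmt2d-/- clones), 14 gained one and 20 changed sign. The counts of genes called depended strongly on the setting. With DESeq2 they were 1593 at day 7 and 1632 at day 0 between genotypes, 986 between days in Kmt2d-/- and 2280 in Kmt2d+/+ clones, and 27 for the difference of day effects, against 290, 332, 196, 786 and 0 in edgeR, with 3, 1, 2 and 2 members called in the first 4. At day 7 limma-voom called 533 genes and 1 member, and flow-cell run 2 alone called 184 genes. Fits of only the groups compared called 55 genes at day 7, 9 at day 0 and 0 between days in Kmt2d-/- clones, with fewer degrees of freedom, and in the last comparison 0 members, as did run 2 alone. With a replicate block as a fixed term for each clone, 862 genes passed between days in Kmt2d-/- clones and 2789 in Kmt2d+/+ clones (1 member). With clone as a random replicate block, 442 genes passed at day 7 (1 member), 193 at day 0, 1302 between days in Kmt2d-/- clones (2 members, Il17b and Csf1) and 3457 in Kmt2d+/+ clones (2 members, Csf1 and Il11). Of the calls of other genes named, those of Socs1 and Tgfb1 at day 0 and Scx at day 7 were lost with the random replicate block. Between days in Kmt2d+/+ clones it lost those of Isg15, Ifit3 and Dmp1, and the fixed one lost that of Ibsp. Limma-voom without a block lost those of Tgfb1 at day 0, and of Rel, Bglap and Comp between days in Kmt2d-/- clones. In Kmt2d+/+ clones it lost those of Col9a1, Pdgfra, Dmp1, Isg15 and Ifit3. Fits of only the groups compared lost Cx3cl1, Il17rc, Csf2rb, Scx, Matn1 and Matn3 at day 7 and Socs1 and Tgfb1 at day 0. Between days these fits lost Rel, Socs2, Bglap, Comp, Matn1 and Matn3 in Kmt2d-/- and Tnfaip3, Ibsp, Ifit3 and Col2a1 in Kmt2d+/+ clones. Leaving out 1 clone gave 10 to 272 genes at day 7, 10 to 912 at day 0 (0 to 1 members), 0 to 183 in Kmt2d-/- clones (0 to 0 members) and 0 to 862 in Kmt2d+/+ clones. Where a Kmt2d-/- clone was left out, the lone library is assumed to vary like the other groups.

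Signs that changed belonged to differences that did not pass. Il11 at day 7 was -0.15 (log2) with run 2 alone and -0.59 to 0.63 with a clone left out. Cxcl12 at day 0 was 0.11 with limma-voom and 0.11 with the random replicate block, and -0.59 to 0.13 with a clone left out. Ccl2 between days in Kmt2d-/- clones was 0.086 with run 2 alone and -1.71 to 0.62 with a clone left out, and Il6 in Kmt2d+/+ clones was -0.094 with run 1 alone. For the difference of day effects, Ccl2 was 0.048 with limma-voom, 1.05 with run 2 alone, 0.043 with the random replicate block and -0.66 to 1.71 with a clone left out, Csf1 was -0.79 to 0.17 and Cxcl1 -0.80 to 0.21. The cause was not tested. Members with few counts (Ccl2 and Ccl7 in Kmt2d-/- clones, Il6, Il11, Cxcl5) are limited by depth, and 2 Kmt2d-/- clones limit every test.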
